A study of Homo sapiens with 10 samples.

Results

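The mRNAs of 10 genes of the translation machinery were followed through 10 mRNA-sequencing libraries of HEK293 cells, a human embryonic kidney cell line. They encode the translation elongation factors EEF1A1, EEF1A2, EEF1B2, EEF1D, EEF1G and EEF2, and 4 further proteins of the TOP mRNA class or its close family: TPT1, PABPC1, PABPC4 and RACK1. The genes were chosen by name, with earlier results of these data known, and transcripts were matched to them through their RefSeq accession. All 10 were found, each as 1 transcript, among 24994 features, of which 16009 were named genes. The sequencing accompanied a comparison of CLIP methods, in which ultraviolet light fixes proteins to the RNA they bind before the complexes are purified, and it measured polyadenylated RNA under the same culture and irradiation conditions.

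The first group was grown with 1 mM 4-thiouridine (4SU), a photoreactive uridine analogue that cells build into new RNA, for 12 to 14 h and was irradiated at 365 nm. The second received 4SU in the same way and no light. The third received no 4SU and was irradiated at 254 nm, the wavelength that crosslinks natural RNA. The fourth received neither and is called untreated. Each of these 4 groups had 2 libraries, lettered A and B. The remaining 2 libraries were from cells given siRNA, 1 with an siRNA to HuR, an RNA-binding protein encoded by ELAVL1, and 1 with an siRNA to GFP, which human cells lack, and both had neither 4SU nor light. No label states whether A and B are separate cultures, and each p-value therefore covers just the spread seen among these libraries, which may be technical.

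Elongation lengthens the protein chain one amino acid at a time. The factor eEF1A, encoded by EEF1A1 or its isoform EEF1A2, carries aminoacyl-tRNA to the ribosome with GTP. The eEF1B complex, built from the products of EEF1B2, EEF1D and EEF1G, reloads eEF1A with GTP, and eEF2 moves the ribosome along the mRNA after each bond. Many mRNAs of this machinery belong to the TOP class, which begin with a cytosine followed by a run of pyrimidines. Growth signals set the translation of TOP mRNAs through mTOR complex 1 and the RNA-binding protein LARP1. TPT1 encodes translationally controlled tumour protein, PABPC1 and PABPC4 encode cytoplasmic poly(A)-binding proteins, and RACK1 encodes a scaffold protein on the small ribosomal subunit.

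For 6 of the 10 genes, the annotated start sequences show whether they carry the mark of the class. Starts came from RefSeq on build GRCh38.p14, and entries for 6 of the 10 genes were used. Each line runs 5′ to 3′ from 8 bases upstream of the annotated start through the first 20 transcribed bases, which are the beginning of the first exon and of the 5′ untranslated region. Capitals mark the unbroken run of pyrimidines that opens with a C at the annotated start, and a sequence without capitals has no such run.
EEF1A1, chr6:73521013-73521040, minus strand: tgaacgttCTTTTTCgcaacgggtttgc
EEF1B2, chr2:206159887-206159914, plus strand: cttcgggtCCTTTTTCCTCTCTTCagcg
EEF2, chr19:3985444-3985471, minus strand: tcagcgttCTCTTCCgccgtcgtcgccg
TPT1, chr13:45341164-45341191, minus strand: gagtcggcCTTTTCCgcccgctcccccc
RACK1, chr5:181243887-181243914, minus strand: ttttctctCTCTCTTTCactgcaaggcg
EEF1G, chr11:62573872-62573899, minus strand: ggcggcttactttgcggcagcgccgaga
The run was 7 bases long in EEF1A1, EEF2 and TPT1, 9 in RACK1 and 16 in EEF1B2. EEF1G had no run from its annotated base, and a second annotated start of EEF1B2 had none either. A C start with a run of at least 5 pyrimidines stood at 5 of the 7 annotated starts of these genes, or 71.4%, and at 46 of 79 starts of cytosolic ribosomal protein genes, or 58.2%. Over all 35116 annotated starts the share was 4.07%. Starts of EEF1D and PABPC1 were not used, and the ribosomal protein and full sets were not reduced in this way. The search was made on the transcribed strand and describes the letters at the annotated base only.

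The libraries of the 4 groups held 2238569 to 3099769 tags, and the siRNA libraries 9016803 (HuR) and 8688262 (GFP). The irradiated libraries held shorter transcripts: the median length over tags was 1147 and 1431 nt with 4SU and 365 nm, against 2373 and 2850 nt with 4SU alone. With 254 nm it was 1534 and 1305 nt, against 2666 and 3029 nt in untreated cells. Between 7.11% and 10.8% of the tags of a library lay on transcripts whose accession matched no gene symbol. Of 9 genes listed as marks of HEK293 cells, IRS4, NEFL, EPCAM and KRT18 were present in all 10 libraries, at 14.9 CPM (normalised counts per 1000000 tags) or more. PAX2, LHX1, NEFM, VIM and KRT8 stayed at or below 17.3 CPM, and PAX2, LHX1, VIM and KRT8 were at 0 in at least 1 library. The blood and liver markers CD3E, HBB, ALB and APOA1 were not listed in any library. Of the other markers of blood, fibroblasts, endothelium, neurons and muscle, COL1A1 and SYP were present throughout at 12.0 to 68.3 CPM, and the rest stayed at or below 10.3 CPM.

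The 10 genes together took 1.88% and 1.56% of all tags in the libraries with 4SU and 365 nm, against 0.969% and 0.841% with 4SU alone. With 254 nm they took 0.956% and 0.795%, against 0.962% and 0.687% in untreated cells. In the siRNA libraries the share was 0.947% with HuR siRNA and 0.705% with GFP siRNA. The 365 nm libraries stood above every other library in this share, and the 254 nm and untreated libraries overlapped.

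Levels between genes were compared as CPM per 1000 nt of transcript. TPT1 was highest in both libraries with 4SU and 365 nm, at 19919 and 9690.0 CPM per 1000 nt, followed by EEF2 at 6608 and 5123. In untreated cells TPT1 had 1231 and 1089.6 and EEF2 1241 and 732 CPM per 1000 nt, so that the pair overlapped. In the same untreated cells the eEF1B genes EEF1B2, EEF1G and EEF1D had 92.0 to 161 CPM per 1000 nt, and their libraries overlapped with each other. PABPC1 had 217 and 249.5 CPM per 1000 nt in untreated cells and lay above PABPC4, which had 99.4 and 125. EEF1A2 had 52.0 and 28.1, RACK1 21.2 and 9.96, and EEF1A1 3.68 and 7.12 CPM per 1000 nt. EEF1A1 was thus the lowest of the 10 genes on this scale in untreated cells, and its libraries lay below those of RACK1.

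**Figure D1:**
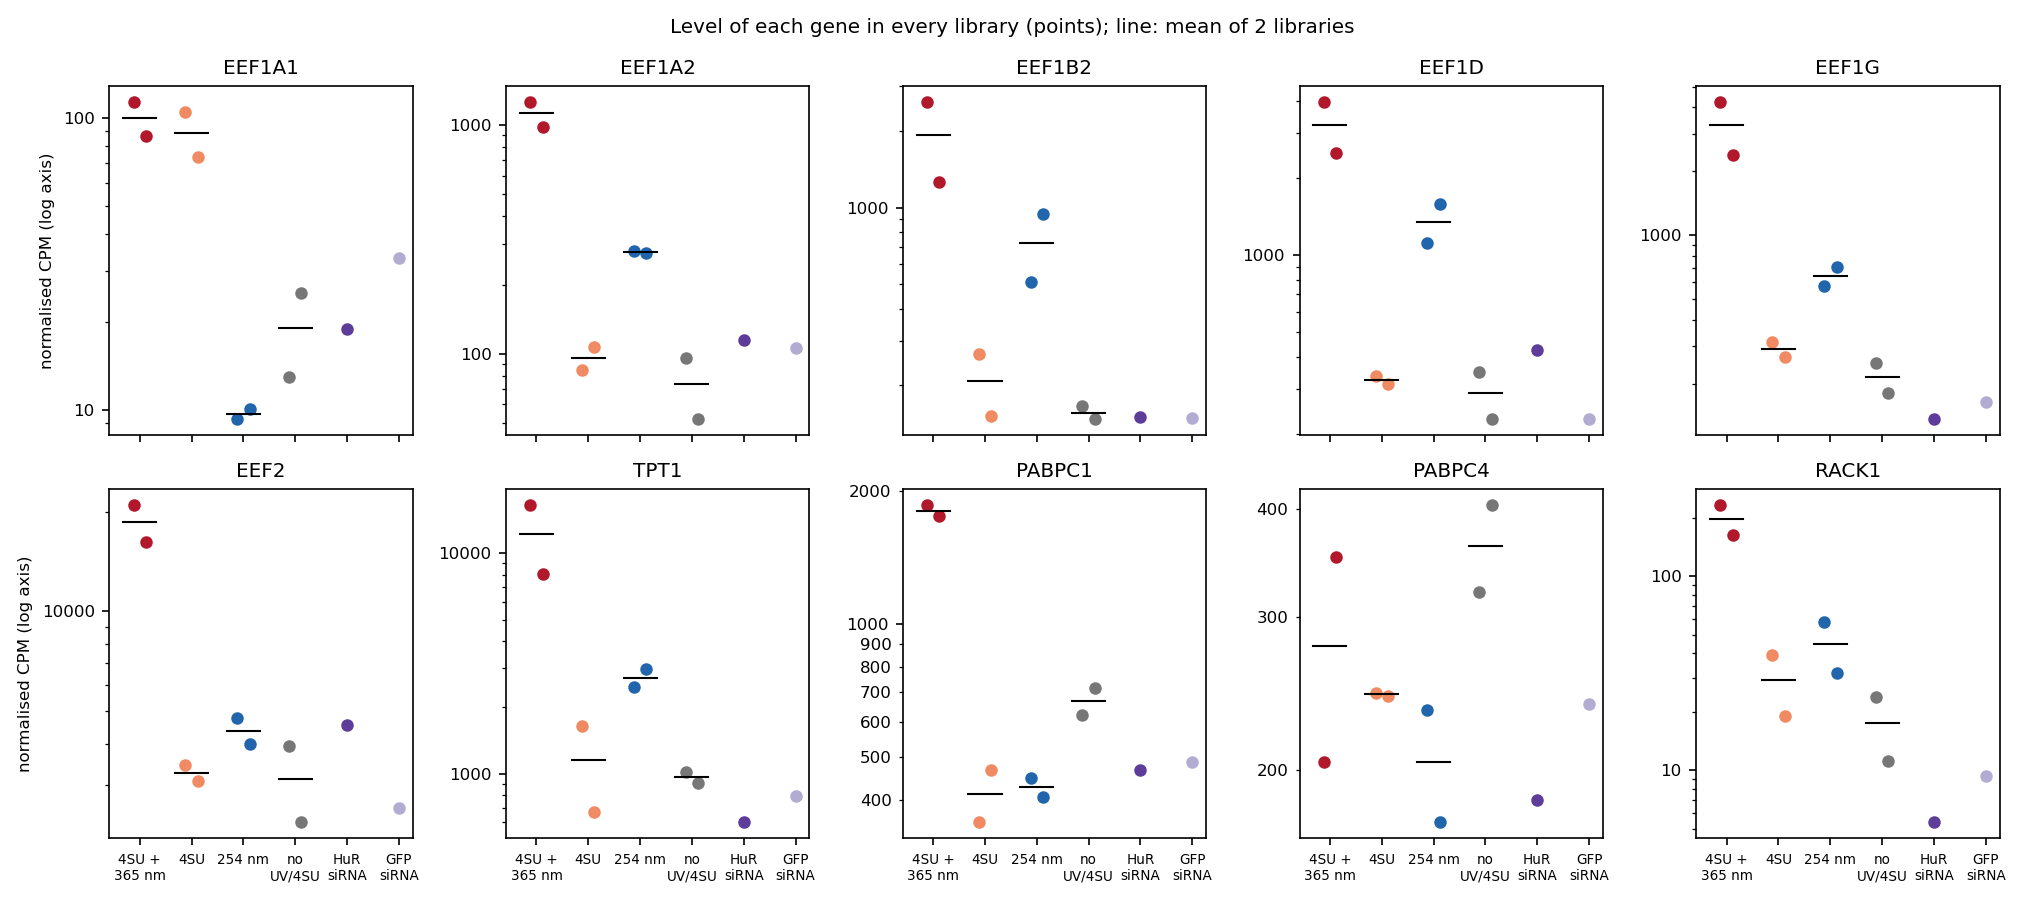
Normalised CPM on a log axis for each of the 10 genes in every library; points are libraries, horizontal lines the mean of 2 libraries, and each panel has its own scale. In 8 panels the 2 libraries with 4SU and 365 nm lie above all the others, while PABPC4 spans 174 to 404 CPM over the 8 libraries of the 4 groups and EEF1A1 is high in the 4 libraries with 4SU. The share of all genes with such a pattern was not counted.

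The low count of EEF1A1 limits what can be read from it. EEF1A1 is known as the eEF1A form of most dividing cells, yet its accession, NM_001402 with 3528 nt, held only 19 to 349 tags in the 8 libraries. It ranked no higher than 1432nd by tags in any of the 10 libraries. EEF1A1 had fractional counts, which arise where a tag matches several transcripts and is shared between them, in 2 of 10 libraries, namely 56.5 tags in untreated library A and 427.5 in the GFP siRNA library. Fractional counts were more frequent in other genes: TPT1 had them in 9 of 10 libraries, EEF1B2 in 7, EEF1A2 in 5, PABPC1 in 4, EEF1D in 3 and EEF2 in 1. EEF1G, PABPC4 and RACK1 had whole counts throughout. Counts of the genes with split tags are uncertain by the part that was shared out.

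Sequence shared with pseudogenes differed widely between the genes. In the GENCODE v29 coding transcript closest in length to the deposited one, 35.2% of the 36-base windows of EEF1A1 also occurred in transcripts annotated as pseudogenes, from 36 pseudogenes. The share was 69.9% for EEF1G, 49.95% for EEF1B2, 23.7% for TPT1, 15.8% for PABPC1 and 12.4% for EEF1D. It was 5.54% for RACK1, 3.88% for PABPC4, and 0% for EEF1A2 and EEF2. These shares count pseudogenes only. Counting every other gene, 1399 shared at least 1 window with RACK1 and 83 with EEF1A1, and the share of windows involved was not computed. The read length is not given in the sources used here, and the part that shared sequence or unnamed accessions played in the counts of EEF1A1 and RACK1 was not tested.

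The comparison of 4SU alone with untreated cells shows what the labelling does to these mRNAs without light. One gene, EEF1A1, rose, and the other 9 did not pass the test. EEF1A1 had 105 and 73.4 CPM with 4SU alone, from 341 and 349 tags, against 12.97 and 25.1 CPM in untreated cells, from 56.5 and 83 tags. The groups did not overlap, and the log2 fold change was 2.29 ± 0.36 (SE), with an adjusted p of 4.17e-05 in edgeR's quasi-likelihood test with Benjamini-Hochberg adjustment over all 13747 genes tested. Of all genes tested, 3.86% were called higher and 3.64% lower in this comparison. The log2 fold changes of the other members lay between -0.65 for PABPC1 and 0.76 for RACK1. RACK1, with 39.4 and 18.9 CPM with 4SU alone against 23.9 and 11.2 CPM in untreated cells, overlapped between groups, and its log2 fold change became 1.40 with an edgeR adjusted p of 0.0263 without untreated library A. Over the 8 fits that left out a library it ranged from 0.108 (edgeR adjusted p = 0.961) to that value.

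EEF1G, PABPC1 and PABPC4 missed the threshold, and their libraries did not overlap between 4SU alone and untreated cells. With 2 libraries a group such separation can easily arise by chance. Its share over all genes was not counted, here or in the comparisons below. EEF1G had 315.5 and 267 CPM with 4SU alone against 250.3 and 182 CPM in untreated cells. PABPC1 had 356 and 468.5 CPM with 4SU alone against 621 and 716 CPM in untreated cells, and PABPC4 had 246 and 244 CPM against 321 and 404 CPM. Over the 10 genes the median log2 fold change was 0.38, beside 0.03 over all genes tested. In bulk RNA such values cannot tell fewer cells with an mRNA from less of it per cell.

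The genes whose levels over the 8 libraries ran closest to EEF1A1 were C1QTNF12, MYLK2 and C8G, at a root mean square distance of 0.40, 0.42 and 0.43 on the centred log2 scale. All had few tags, at most 24, 32 and 25 in a library, so the likeness rests on small counts. For EEF1A2 the closest gene was CRABP1, at a distance of 0.12. For PABPC1 the closest named genes were SH3KBP1, at 0.11, and ARSB, at 0.14.

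Irradiation at 365 nm of 4SU-labelled cells was compared with 4SU alone, the contrast that isolates the light step of the 4SU protocol. Relative to the other mRNAs, 8 of the 10 genes rose: all of the elongation factors but EEF1A1, together with TPT1, PABPC1 and RACK1. Of all genes tested, 26.1% were called higher and 33.5% lower. The median log2 fold change of the 10 genes was 3.06, beside -0.50 over all genes tested. EEF1A1 and PABPC4 did not pass the test. These values use TMM factors, which scale libraries so that most genes do not change on average. Scaled by library totals alone, 6 of the 10 genes were called higher, with EEF2 and PABPC1 no longer past the threshold, and EEF1A1 and PABPC4 were called lower, against 7.56% of all genes higher and 72.5% lower. That scaling moved the median of all genes to -2.38. Measured from the median of all genes, all 10 genes lay above it under both scalings, by 0.73 to 4.12 with TMM and by 0.70 to 4.05 with totals.

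Among the eEF1A genes, EEF1A2 had 1259 and 982 CPM with 4SU and 365 nm, against 84.7 and 107 CPM with 4SU alone. The lowest irradiated library held more than any library without light, and the log2 fold change was 3.63 ± 0.41 (edgeR adjusted p = 2.37e-09). EEF1A1 had 114 and 87.1 CPM with 4SU and 365 nm, against 105 and 73.4 CPM with 4SU alone. Its groups overlapped, with a log2 fold change of 0.24 ± 0.34 (edgeR adjusted p = 0.559) and of -1.69 under library totals (edgeR adjusted p = 8.42e-05). The ratio of EEF1A2 to EEF1A1 tags, which needs no scaling, was 11.1 and 11.3 with 4SU and 365 nm and 0.805 and 1.45 with 4SU alone.

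With TMM factors the 3 genes of the eEF1B complex moved by similar amounts. They lay further apart once transcript length was allowed for, as given below. EEF1G, the gamma subunit, had 4239.6 and 2373 CPM with 4SU and 365 nm, against 315.5 and 267 CPM with 4SU alone. EEF1D, the delta subunit, had 3958 and 2488.5 CPM with 4SU and 365 nm, against 336.5 and 313 CPM. EEF1B2, which encodes the beta subunit, had 2609 and 1263 CPM with 4SU and 365 nm, against 265 and 152 CPM. In each gene library A was the higher of the 2 irradiated libraries, and no irradiated library overlapped with 4SU alone. The log2 fold changes were 3.58 ± 0.46 for EEF1G, 3.39 ± 0.46 for EEF1D and 3.29 ± 0.46 for EEF1B2, with edgeR adjusted p of 2.53e-08, 8.34e-08 and 1.14e-07. EEF1B2 was 2.64 without 365 nm library A.

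EEF2, the translocase, had 20902 and 16204 CPM with 4SU and 365 nm, against 3447 and 3086 CPM with 4SU alone. The log2 fold change was 2.58 ± 0.54 (edgeR adjusted p = 0.000117), and it was 0.64 with library totals (edgeR adjusted p = 0.127). TPT1 had 16513 and 8033 CPM with 4SU and 365 nm, against 1637 and 672 CPM with 4SU alone, a log2 fold change of 3.48 ± 0.56 (edgeR adjusted p = 1.61e-06). Library A of TPT1 was the higher one in both groups, and the groups did not overlap. The TPT1 log2 fold change was 2.84 without 365 nm library A and 4.29 without library A of 4SU alone. RACK1 had 232 and 162 CPM with 4SU and 365 nm, from 202 and 216 tags, against 39.4 and 18.9 CPM with 4SU alone, from 128 and 90 tags. Its log2 fold change was 2.83 ± 0.39 (edgeR adjusted p = 1.07e-07), and 3.47 without library A of 4SU alone.

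The poly(A)-binding protein genes parted. PABPC1, the main cytoplasmic form, had 1856 and 1749.8 CPM with 4SU and 365 nm, against 356 and 468.5 CPM with 4SU alone, and rose by a log2 fold change of 2.20 ± 0.40 (edgeR adjusted p = 1.56e-05). It was 0.27 with library totals (edgeR adjusted p = 0.53). PABPC4 had 204 and 352 CPM with 4SU and 365 nm, against 246 and 244 CPM with 4SU alone. Its irradiated libraries lay on either side of the others, with a log2 fold change of 0.25 ± 0.35 (edgeR adjusted p = 0.545), and of -1.61 with library totals (edgeR adjusted p = 0.000121). The PABPC1 to PABPC4 ratio of tags was 9.08 and 4.97 with 4SU and 365 nm, against 1.45 and 1.92 with 4SU alone.

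**Figure D2:**
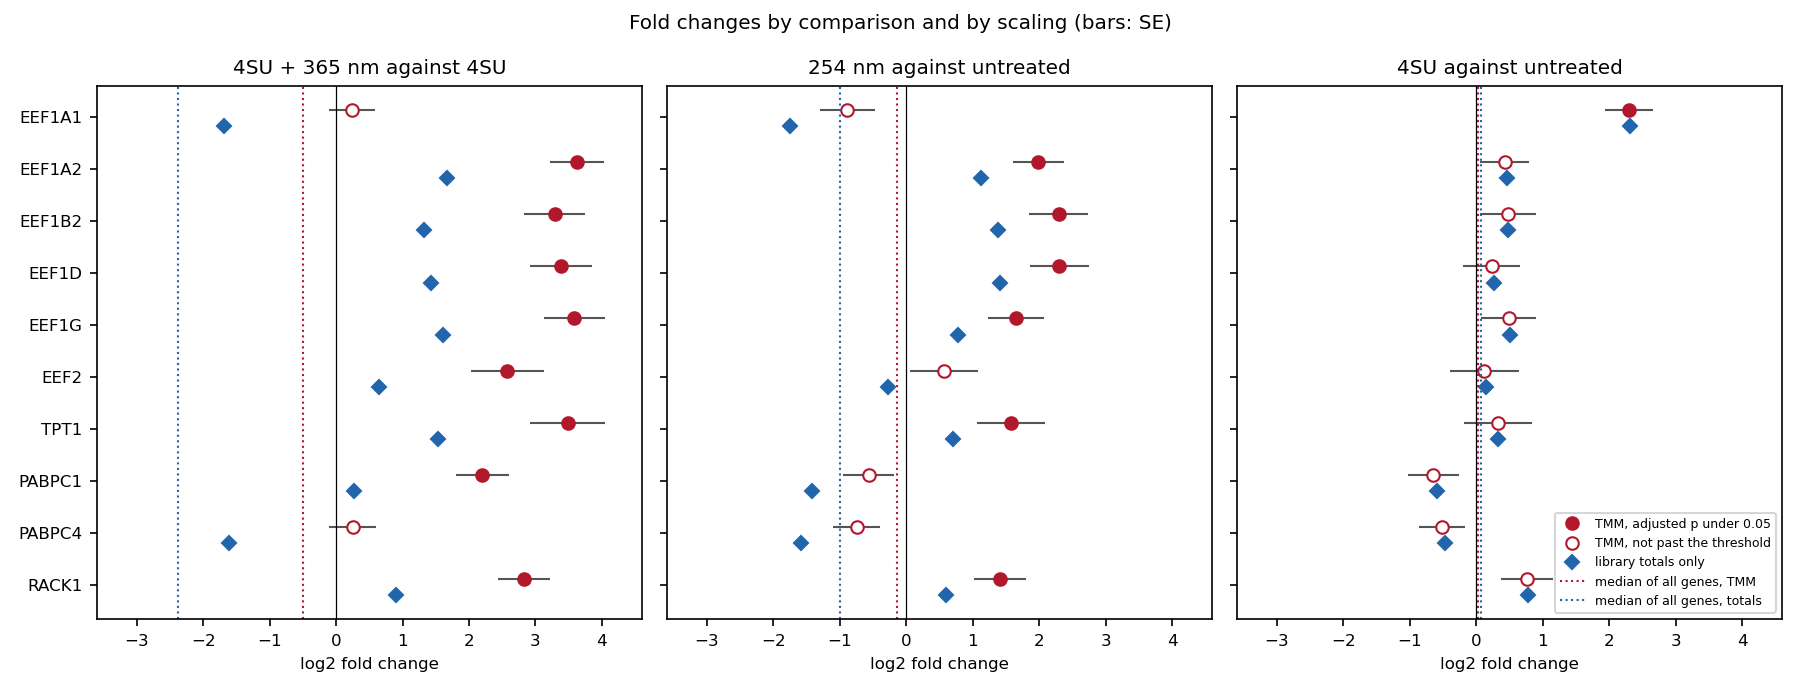
Log2 fold changes of the 10 genes in 3 comparisons; circles use TMM factors with SE bars (filled where the adjusted p is under 0.05), diamonds use library totals, and dotted lines give the median of all genes under each scaling. At 365 nm the median of all genes lies at -0.50 with TMM and -2.38 with totals, and every circle and diamond lies to the right of its own line.

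Irradiation at 254 nm without 4SU was compared with untreated cells. Relative to the other mRNAs, 6 of the 10 genes rose: EEF1D, EEF1B2, EEF1A2, EEF1G, TPT1 and RACK1. Of all genes tested, 25.2% were called higher and 28% lower. The median log2 fold change of the 10 genes was 1.5, beside -0.14 over all genes tested. EEF2, PABPC1, PABPC4 and EEF1A1 did not pass the test. With upper-quartile factors EEF1A1 (-1.03, edgeR adjusted p = 0.0331) and PABPC4 (-0.895, edgeR adjusted p = 0.0294) were called lower, and with the replicate block EEF1A1 was (edgeR adjusted p = 0.0462). With library totals 3 of the 10 genes were called higher (EEF1A2, EEF1B2 and EEF1D) and 3 lower (EEF1A1, PABPC1 and PABPC4), against 10.1% of all genes higher and 47% lower, around a median of all genes of -0.99. Measured from that median, 7 of the 10 genes lay above it under both scalings.

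EEF1D had 1114 and 1579 CPM with 254 nm, against 347 and 228 CPM in untreated cells, a log2 fold change of 2.31 ± 0.44 (edgeR adjusted p = 4.11e-05). EEF1B2 had 509 and 944 CPM with 254 nm, against 165 and 147 CPM in untreated cells, a log2 fold change of 2.29 ± 0.44. EEF1A2 had 280.1 and 276 CPM with 254 nm, against 95.8 and 51.8 CPM in untreated cells, a log2 fold change of 1.99 ± 0.38. EEF1G had 576 and 709 CPM with 254 nm, against 250.3 and 182 CPM in untreated cells, a log2 fold change of 1.65 ± 0.43. In these 4 genes no irradiated library overlapped with an untreated one, and the share of all genes so separated was not counted.

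TPT1 had 2459 and 2977 CPM with 254 nm, against 1021 and 903 CPM in untreated cells, and a log2 fold change of 1.58 ± 0.52 (edgeR adjusted p = 0.00984). The call was lost without 254 nm library B (edgeR adjusted p = 0.0554) and without untreated library B (edgeR adjusted p = 0.084). RACK1 had 57.7 and 31.8 CPM with 254 nm, against 23.9 and 11.2 CPM in untreated cells, and a log2 fold change of 1.42 ± 0.39 (edgeR adjusted p = 0.00262). That call was lost without 254 nm library A, at a log2 fold change of 0.97 (edgeR adjusted p = 0.091), and without untreated library B, at 0.98 (edgeR adjusted p = 0.0515). Without untreated library A the log2 fold change was 2.07. The groups did not overlap in either gene.

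EEF2 had 4776 and 3986 CPM with 254 nm, against 3926 and 2315 CPM in untreated cells. The lower 254 nm library stood just above the higher untreated one, and the log2 fold change of 0.57 ± 0.51 did not pass (edgeR adjusted p = 0.358). PABPC1 had 449 and 406 CPM with 254 nm, against 621 and 716 CPM in untreated cells, with a log2 fold change of -0.57 ± 0.39 (edgeR adjusted p = 0.219). PABPC4 had 235 and 174 CPM with 254 nm, against 321 and 404 CPM, with -0.75 ± 0.35 (edgeR adjusted p = 0.0704). EEF1A1 had 9.29 and 10.1 CPM with 254 nm, from 19 tags in each library, against 12.97 and 25.1 CPM in untreated cells, with -0.88 ± 0.41 (edgeR adjusted p = 0.0661). These 3 genes had both 254 nm libraries below both untreated ones, and without untreated library A the calls of EEF1A1 (edgeR adjusted p = 0.00658) and PABPC4 (edgeR adjusted p = 0.0456) passed.

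Transcript length ran through both irradiation comparisons. Over all genes tested, the twentieth with the shortest transcripts (median 621.5 nt) had a median log2 fold change of 2.08 at 365 nm and 1.82 at 254 nm. The twentieth with the longest (median 9446 nt) had -1.58 and -1.73. Over the 10 genes the Spearman correlation of length and log2 fold change was -0.697 at 365 nm and -0.612 at 254 nm, as a description of 10 points that share libraries. EEF1A1, PABPC4 and EEF2, with 3528, 3230 and 3163 nt, are the longest, and TPT1 with 829 nt is the shortest.

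With the length trend removed from the fit, the same 8 genes as before were called higher at 365 nm, with a median log2 fold change of 2.36 over the 10 genes, beside -0.26 over all genes tested and 23.2% of genes called higher and 18.3% lower. The shorter transcripts moved down: TPT1 had 2.02 in place of 3.48, EEF1B2 2.13 in place of 3.29, EEF1G 2.91 in place of 3.58 and RACK1 1.72 in place of 2.83. EEF1A2 also moved down, to 3.27 from 3.63. The longer transcripts moved up: EEF1D had 3.60 in place of 3.39, EEF2 3.07 in place of 2.58 and PABPC1 2.58 in place of 2.20. EEF1A1 had 0.85 in place of 0.24 and PABPC4 0.81 in place of 0.25, and both stayed uncalled. At 254 nm 2 of the 10 genes were then called higher, EEF1D at a log2 fold change of 2.08 and EEF1A2 at 1.20. The median of the 10 genes was 0.28, beside -0.14 over all genes tested, and 9.83% of genes were called higher and 15% lower. TPT1 and RACK1, both short, had -0.11 and -0.04 at 254 nm without the trend, EEF1B2 had 0.85 and EEF1G 0.60, and none of these passed. The trend used the length of the 1 deposited transcript of each of the 10 genes, which is 2478 nt for EEF1D. GENCODE v29 lists 47 coding transcripts of EEF1D, with a median of 761 nt, and the effect of the length chosen was not tested.

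**Figure D3:**
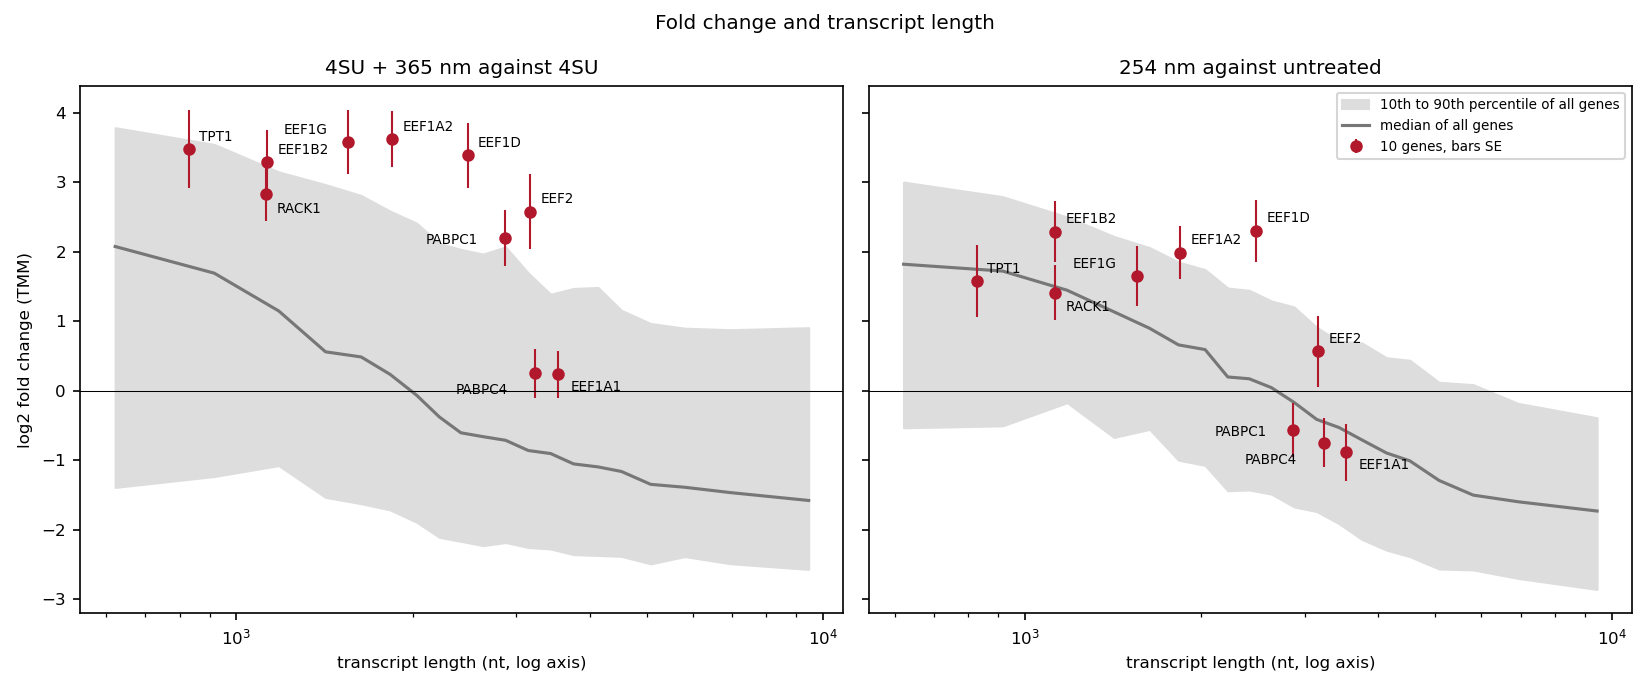
Log2 fold change with TMM factors against transcript length on a log axis, for 365 nm with 4SU (left) and 254 nm (right); the grey line and band are the median and the 10th to 90th percentile of all genes in 20 length bins, and red points are the 10 genes with SE bars. At 365 nm EEF1A2, EEF1G, EEF1D, EEF1B2, EEF2 and PABPC1 lie above the band, at 2.20 to 3.63, and TPT1 and RACK1 lie close to the grey line at 254 nm, at 1.58 and 1.42.

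The cells with 4SU and 365 nm were also set against untreated cells, a comparison that shares its libraries with those above. Here 9 of the 10 genes were called higher, where 26.3% of all genes were called higher and 32.3% lower, and the median log2 fold change of the 10 genes was 3.61 beside -0.39 over all genes tested. The largest was EEF1G at 4.07 ± 0.47, and the smallest called was PABPC1 at 1.56 ± 0.39, which became -0.33 with library totals. EEF1A1 had 114 and 87.1 CPM with 4SU and 365 nm, against 12.97 and 25.1 CPM in untreated cells, and a log2 fold change of 2.53 ± 0.37 (edgeR adjusted p = 2.77e-07), or 0.63 with library totals (edgeR adjusted p = 0.159). PABPC4 had -0.26 ± 0.35 and overlapped between the groups, and with library totals it was called lower, at -2.09 (edgeR adjusted p = 9.37e-07). EEF2, at 2.70 ± 0.55, was not called with library totals, at 0.79 (edgeR adjusted p = 0.0613). In all, 6 of the 10 genes were called higher and 1 lower under that scaling, where 1046 of 13747 genes were higher and 9682 lower. Without 365 nm library A, EEF1B2 was 3.10 instead of 3.76 and TPT1 3.15 instead of 3.81, and without untreated library A, RACK1 was 4.24 instead of 3.59.

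The 2 crosslinking protocols were compared directly, 4SU with 365 nm against 254 nm, and 9 of the 10 genes were higher with 4SU and 365 nm. Of all genes tested, 15.2% were called higher and 12.4% lower. EEF1A1 had the largest difference, a log2 fold change of 3.41 ± 0.41 (edgeR adjusted p = 5.15e-08), with 114 and 87.1 CPM with 4SU and 365 nm against 9.29 and 10.1 CPM with 254 nm. EEF1G followed at 2.42 ± 0.44, then TPT1 at 2.23 ± 0.53, RACK1 at 2.18 ± 0.39, EEF2 at 2.13 ± 0.53, PABPC1 at 2.12 ± 0.40 and EEF1A2 at 2.06 ± 0.38. EEF1B2 at 1.47 and EEF1D at 1.31 were no longer called without 365 nm library A (0.81 and 0.90) or without 254 nm library A (1.07 in both genes). TPT1 was 1.58 without 365 nm library A (edgeR adjusted p = 0.0426). With library totals 7 of the 10 genes were called higher, where 636 of 13747 genes were called higher and 5881 lower. EEF1B2 at 0.42 (edgeR adjusted p = 0.38) and EEF1D at 0.27 (edgeR adjusted p = 0.595) were then not called. PABPC4 had 0.48 ± 0.36, which was -0.51 with library totals.

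Whether the 2 light steps differ in size was tested as the 365 nm effect over 4SU alone minus the 254 nm effect over untreated cells. Light of 365 nm was given only with 4SU and light of 254 nm only without it. Wavelength and 4SU therefore cannot be told apart in this difference. The difference was called in 3 of the 10 genes, where 10% of all genes had a called positive difference and 7.09% a negative one. PABPC1 had the largest, 2.77 ± 0.56 on the log2 scale (edgeR adjusted p = 0.000399). EEF1G had 1.93 ± 0.59 (edgeR adjusted p = 0.0196) and EEF1A2 1.64 ± 0.53 (edgeR adjusted p = 0.0265). EEF2, at 2.01 ± 0.73, missed the threshold (edgeR adjusted p = 0.0513), as did TPT1 at 1.91 ± 0.72 (edgeR adjusted p = 0.0613) and RACK1 at 1.42 ± 0.54 (edgeR adjusted p = 0.0643). The calls of EEF1G and EEF1A2 were lost without 365 nm library A, at 1.43 in both genes (edgeR adjusted p = 0.133 and 0.11). EEF1A2 also lost its call without library A of 4SU alone (1.51), of 254 nm (1.66) or of untreated cells (1.13), and without 254 nm library B (1.63). EEF1G also lost it without library B of 4SU alone (1.80) or library A of 254 nm (1.80) or of untreated cells (1.69). RACK1 gained a call without library A of 4SU alone (2.06), library A of 254 nm (1.93) or untreated library B (1.86), TPT1 without library A of 4SU alone (2.73), and EEF1A1 without untreated library A (1.54). PABPC1 alone of the 10 genes was called with library totals, where 496 of 13747 genes had a called positive difference and 4436 a negative one.

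Ratios of tags within a library depend on no scaling between libraries. EEF2 to PABPC4 was 102 and 46.0 with 4SU and 365 nm, against 14.0 and 12.7 with 4SU alone. With 254 nm it was 20.4 and 22.9, against 12.2 and 5.73 in untreated cells. Both irradiated groups stood above their unirradiated partners in this ratio. PABPC1 to PABPC4 was 1.91 and 2.33 with 254 nm, against 1.94 and 1.77 in untreated cells, which overlapped. EEF1A2 to EEF1A1 was 30.2 and 27.4 with 254 nm, against 7.45 and 2.05 in untreated cells. Within the eEF1B complex, EEF1D to EEF1B2 lay between 1.27 and 2.19 over the 8 libraries, and EEF1G to EEF1B2 between 0.751 and 1.88.

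**Figure D4:**
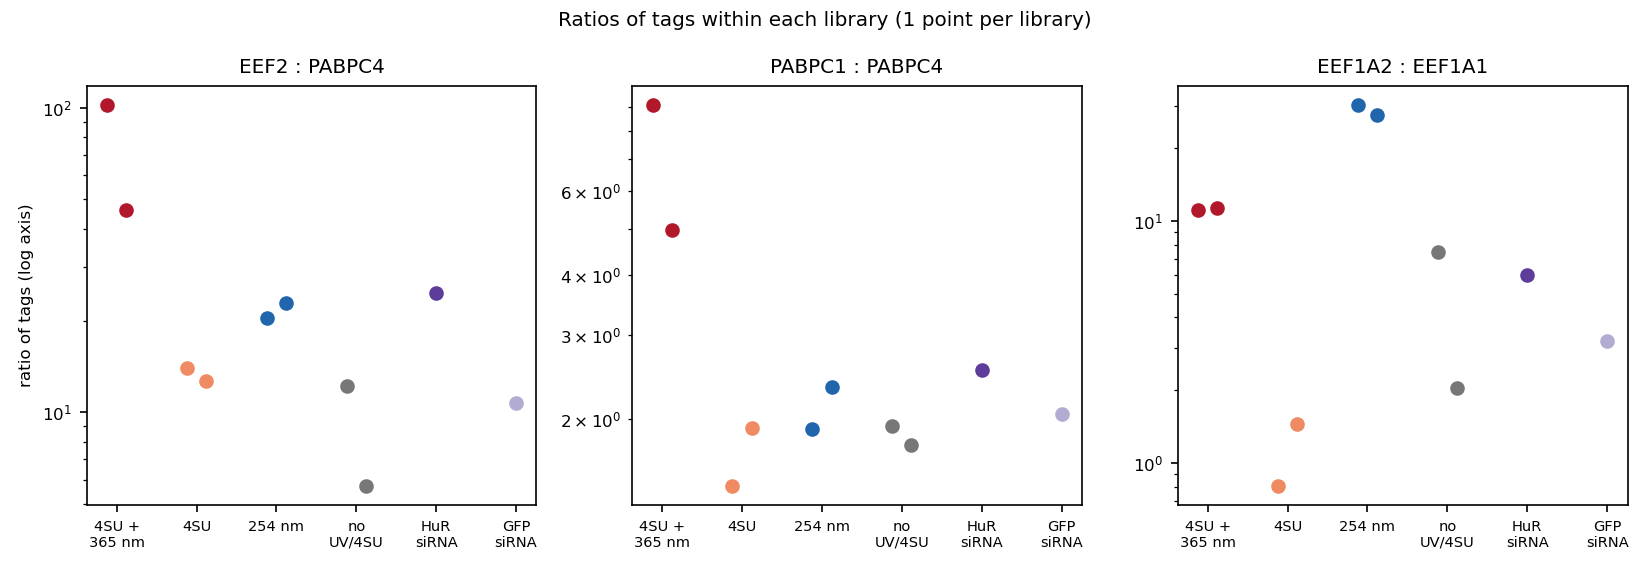
Ratio of tags of EEF2 to PABPC4, PABPC1 to PABPC4 and EEF1A2 to EEF1A1 on log axes, 1 point per library. The 2 libraries with 4SU and 365 nm are the highest in the first 2 panels, at 102 and 46.0 and at 9.08 and 4.97, while the 2 libraries with 254 nm are the highest in the third, at 30.2 and 27.4.

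Other genes of the pathway were followed as lists, which were also chosen with earlier results of these data known. In these lists, counts are read against all genes tested, of which 26.1% were called higher and 33.5% lower at 365 nm and 25.2% higher and 28% lower at 254 nm. Of 23 other TOP mRNA genes tested, 20 were called higher and 2 lower with 4SU and 365 nm against 4SU alone, and their median log2 fold change was 2.65, or 2.01 with the length trend removed and 0.77 with library totals. At 254 nm against untreated cells 12 were called higher and 4 lower, with a median of 0.98, or 0.32 with the length trend removed and 0.15 with library totals. FAU, which encodes a fusion of a ubiquitin-like protein with ribosomal protein S30, had 7553 and 4866 CPM with 4SU and 365 nm, against 691 and 282 CPM with 4SU alone, a log2 fold change of 3.74 ± 0.53 (edgeR adjusted p = 1.80e-07), or 2.01 with the length trend removed. EIF3K, an initiation factor subunit, had a log2 fold change of 3.63 ± 0.49 at 365 nm and 2.43 ± 0.47 at 254 nm, or 2.16 and 0.80 with the trend removed. NAP1L1, a histone chaperone gene with a transcript of 5125 nt, had 2465 and 1855 CPM with 4SU and 365 nm, against 214 and 221 CPM with 4SU alone. Its log2 fold change was 3.39 ± 0.43, or 4.25 with the length trend removed.

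All 74 cytosolic ribosomal protein genes tested were called higher in both irradiation comparisons. Their median log2 fold change was 3.72 at 365 nm, or 2.10 with the length trend removed, and 2.74 at 254 nm, or 1.09 with the trend removed. With library totals the medians were 1.76 and 1.82. Their median length was 740 nt. The median of the 10 genes at 365 nm was 3.06, or 2.36 with the trend removed.

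Of 16 other genes of elongation or of elongation factor modification, 5 were called higher and 2 lower with 4SU and 365 nm, and 11 higher and 1 lower with 254 nm. At 365 nm the share called higher lay near the 26.1% of all genes. The median log2 fold change was 0.54 at 365 nm and 1.06 at 254 nm, and -1.37 and 0.18 with library totals. EIF5A, whose hypusine-bearing product helps the ribosome past difficult peptide bonds, had 4264 and 4163 CPM with 4SU and 365 nm, against 779.8 and 457 CPM with 4SU alone, a log2 fold change of 2.83 ± 0.46. VARS1, the valyl-tRNA synthetase found in complex with eEF1B, had 1476 and 1617 CPM with 4SU and 365 nm, against 248 and 226 CPM with 4SU alone, and a log2 fold change of 2.77 ± 0.40. EEF2K, the kinase that inhibits eEF2 by phosphorylation, fell, with 5.74 and 8.26 CPM with 4SU and 365 nm, against 20.9 and 25.9 CPM with 4SU alone. Its log2 fold change was -1.64 ± 0.48 at 365 nm and -2.47 ± 0.45 at 254 nm, and -0.56 and -1.25 with the length trend removed, for a transcript of 7412 nt. DOHH, which completes the hypusine of EIF5A, had 55.4 and 33.0 CPM with 4SU alone, against 22.8 and 13.3 CPM in untreated cells, and was the one gene of this list called in that comparison, at a log2 fold change of 1.33 ± 0.36 (edgeR adjusted p = 0.0162).

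Of the 4 mitochondrial elongation factor genes, 2 were called higher and none lower with 4SU and 365 nm, where 26.1% and 33.5% of all genes were, and 2 were called higher and 1 lower with 254 nm, where 25.2% and 28% of all genes were. The median log2 fold change was 0.77 at 365 nm and 0.50 at 254 nm, and -1.11 and -0.36 with library totals. TUFM, the mitochondrial counterpart of eEF1A, had 5836 and 4440 CPM with 4SU and 365 nm, against 627 and 551 CPM with 4SU alone, a log2 fold change of 3.20 ± 0.47. With 254 nm its log2 fold change was 1.71 ± 0.45. GFM1, which encodes a mitochondrial translocase, was the one called lower with 254 nm, at -1.36 ± 0.37.

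Among 10 paralogues and partners of the poly(A)-binding proteins, 2 were called higher and 2 lower with 4SU and 365 nm, and none higher and 4 lower with 254 nm. At 365 nm both shares lay below those of all genes, 26.1% and 33.5%, and at 254 nm 25.2% of all genes were called higher and 28% lower. The median log2 fold change was -0.12 at 365 nm and -0.59 at 254 nm, and -2.002 and -1.46 with library totals. EIF4G1, the scaffold that links the cap to poly(A)-binding protein, had 2300.0 and 3019 CPM with 4SU and 365 nm, against 770.2 and 942 CPM with 4SU alone. Its log2 fold change was 1.70 ± 0.42 and turned to -0.19 with library totals. TOB1, which joins PABPC1 to the deadenylase complex, had 29.2 and 43.8 CPM with 4SU alone, against 89.6 and 149.8 CPM in untreated cells, a log2 fold change of -1.66 ± 0.36 (edgeR adjusted p = 0.00291). It was also lower at 365 nm, at -1.76 ± 0.46, and at 254 nm, at -2.06 ± 0.38. TOB2, its paralogue, had -2.01 ± 0.43 at 365 nm and -2.12 ± 0.41 at 254 nm.

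Of 18 regulators of TOP mRNAs, 6 were called higher and 10 lower with 4SU and 365 nm, and 4 higher and 9 lower with 254 nm. The shares called higher lay near the 26.1% and 25.2% of all genes, beside 33.5% and 28% of all genes called lower. Their median log2 fold change was -0.997 at 365 nm and -0.78 at 254 nm, and -2.91 and -1.65 with library totals, and their median length was 5087 nt. LARP1, which binds the TOP cap, had 75.8 and 50.8 CPM with 254 nm, against 315 and 377 CPM in untreated cells, a log2 fold change of -2.37 ± 0.35, or -1.08 with the length trend removed, for a transcript of 7280 nt. EIF4EBP1, an mTOR substrate that restrains cap-dependent initiation, had 1413 and 808 CPM with 4SU and 365 nm, against 272 and 119.7 CPM with 4SU alone, a log2 fold change of 2.58 ± 0.45. With 254 nm its log2 fold change was 2.79 ± 0.46. With the length trend removed the EIF4EBP1 values were 1.17 at 365 nm and 1.16 at 254 nm, for a transcript of 877 nt. EIF4E, the cap-binding protein, had 4.59 and 3.0 CPM with 4SU and 365 nm, against 26.2 and 18.3 CPM with 4SU alone, a log2 fold change of -2.52 ± 0.58. The EIF4E value was -1.65 with the length trend removed, for a transcript of 4842 nt, and the irradiated libraries held few tags of it. AKT1S1, which encodes an inhibitory partner of mTOR complex 1, had 149.9 and 121 CPM with 4SU alone, against 68.5 and 49.0 CPM in untreated cells, and rose by a log2 fold change of 1.25 ± 0.34 (edgeR adjusted p = 0.0167).

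The HuR siRNA library was set against the GFP siRNA library, without a replicate on either side and therefore without a test. ELAVL1, the target, had 638 tags in the HuR siRNA library against 1905 in the GFP siRNA library, a log2 ratio of -1.57 with a 95% exact counting interval from -1.70 to -1.44. Intervals here cover counting error only. EEF2 and EEF1D were higher in the HuR siRNA library. EEF2 had 58437 tags there against 32848 in the GFP siRNA library, a log2 ratio of 0.84 (0.82 to 0.86). EEF1D had 424 CPM against 229 CPM, a log2 ratio of 0.89 (0.83 to 0.96).

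EEF1A1 and RACK1 had the lowest ratios. EEF1A1 had 243 tags in the HuR siRNA library against 427.5 in the GFP siRNA library, a log2 ratio of -0.81 (-1.04 to -0.58). RACK1 had 69 tags against 120, a log2 ratio of -0.79 (-1.24 to -0.35). TPT1 had -0.39 (-0.44 to -0.35), PABPC4 -0.36 (-0.44 to -0.29) and EEF1G -0.27 (-0.36 to -0.18). EEF1A2 at 0.10, EEF1B2 at 0.01 and PABPC1 at -0.06 lay nearest to 0, with EEF1A2 and EEF1B2 having intervals that included 0. Over 10648 genes with at least 200 tags in the 2 libraries together the median log2 ratio was -0.04, and the 5th and 95th percentiles were -1.05 and 0.86. The 72 ribosomal protein genes among them had a median of 0.64. EEF1D lay just above the 95th percentile of all genes and EEF2 just below it.

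**Figure D5:**
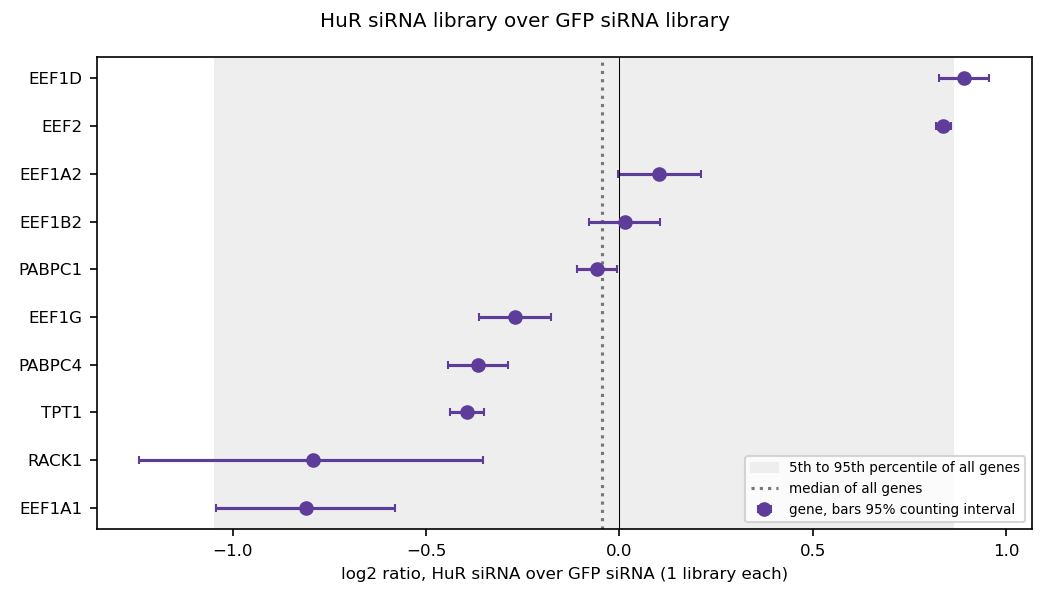
Log2 ratio of the HuR siRNA library over the GFP siRNA library for the 10 genes, with 95% exact counting intervals; the grey band is the 5th to 95th percentile of genes with at least 200 tags and the dotted line their median. EEF1D and EEF2 stand at 0.89 and 0.84, and EEF1A1 and RACK1 at -0.81 and -0.79.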

How the data were processed

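The files list transcripts with expected counts of tags that the authors deposited, not normalized and summing to the total in the file header. The deposited files also hold a transcript length, which was used, and an expression signal, which was not. Neither aligner nor build nor annotation is given in the sources used. The members and lists were chosen with earlier results of these data known. Accessions were matched to symbols by RefSeq (15886 of 25005 transcripts) and GENCODE v29 (134 more), and 8985 stayed under their accession. Expected counts were rounded to whole tags.

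The 8 libraries of the 4 groups entered 1 edgeR 4.0.16 quasi-likelihood model (R 4.3.3) with group means, TMM factors and filterByExpr. It had 4 residual degrees of freedom, and calls are at an adjusted p under 0.05, two-sided. The spread of each gene was drawn towards that of all genes, with a median of 38.9 prior degrees of freedom. The p-values therefore rest largely on spread borrowed from other genes. The SE was approximated from the F statistic as the log2 fold change over its square root. CPM uses TMM factors of all 10 libraries. Scaled by library totals alone, without these factors, 3 tags equal 0.333 to 1.34 CPM. The factors were 0.363 and 0.464 in the libraries with 4SU and 365 nm, where 3 tags therefore stand for more CPM than that range. Named genes are the 10 members, up to 4 genes per list and comparison with the largest called, non-overlapping change, and the 3 nearest patterns of EEF1A1, EEF1A2 and PABPC1. A list gene at 0 in a library is left out, as are list genes beyond the few needed, and an item that the rule takes is not reported here. Alternatives tried were library totals, upper-quartile and RLE factors, DESeq2 1.42.0, a length trend (spline, 5 degrees of freedom) removed, a stricter adjusted p of 0.01, no filter or one at 5 CPM, unsummed transcripts, a replicate block, fits of the compared groups only, and leaving out each library. The fits were tested on simulated data. The test of the calls changed few genes, as many up as down. It does not cover shifts as wide as those of the irradiated libraries. Replicates differed by more than sampling noise, with a chi-square per degree of freedom of 10.7 to 18.7.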

Additional observations from a re-analysis of the deposited data

Results flagged for a closer look

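The effect of irradiation differed between the 2 protocols, by a test of the difference itself, in 3 of the 10 genes, where 10% of all genes had a called positive difference and 7.09% a negative one. The log2 fold change of 365 nm over 4SU alone exceeded that of 254 nm over untreated cells by 2.77 in PABPC1, by 1.93 in EEF1G and by 1.64 in EEF1A2. In PABPC1 the 2 effects were 2.20 and -0.57, in EEF1G 3.58 and 1.65, and in EEF1A2 3.63 and 1.99. Tag-weighted transcript lengths were shorter in both irradiated groups, and their part in these differences was not tested beyond the fit with the length trend removed, where 6 of the 10 differences were called, beside 1397 positive and 270 negative calls over 13747 genes. The EEF1G call was lost in 4 and the EEF1A2 call in 5 of the 8 fits that left out a library, while the PABPC1 call was lost in none of them.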

How the results depend on the processing

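Scaling by library totals moved the most values. It gave EEF1A1 -1.69 and PABPC4 -1.61 at 365 nm, EEF2 -0.279 at 254 nm, PABPC1 -0.33 for 4SU with 365 nm against untreated cells and PABPC4 -0.511 against 254 nm, and in the difference of effects EEF1B2 -0.0603 and PABPC4 -0.0356. Removing the length trend gave EEF2 -0.0354 and TPT1 -0.132 for 4SU alone, TPT1 -0.113 and RACK1 -0.0446 at 254 nm, where 2 genes were called, and PABPC4 0.236 for 4SU with 365 nm against untreated cells. Called differences of effects, reported as 3, numbered 1 at an adjusted p under 0.01 and with library totals, 5 without a filter and with DESeq2, and 6 with RLE factors, with the length trend removed and with the replicate block. The positive and negative calls over all genes moved too, from 1375 and 975 as reported to 496 and 4436 with library totals, 1353 and 875 without a filter, 1539 and 454 with DESeq2, 1674 and 603 with RLE factors, 1397 and 270 without the trend and 1552 and 1364 with the block. The letters A and B do not pair the libraries by any label, and their deviations correlated at -0.0818 to 0.346 between groups; the replicate block otherwise gave counts of 1, 8, 9 and 9 and gave 7 at 254 nm, with EEF1A1 called lower at -0.887. Leaving out each library gave 1 to 2 calls for 4SU alone, 8 at 365 nm, 4 to 8 at 254 nm, 9 and 7 to 9 in the other comparisons, and 1 to 4 differences of effects. For 4SU alone it gave EEF1B2 -0.032 to 0.831, EEF1D -0.0587 to 0.548, EEF2 -0.228 to 0.535 and TPT1 -0.505 to 0.836. At 365 nm it gave EEF1A1 -0.0249 to 0.542 and PABPC4 -0.159 to 0.575, and PABPC4 -0.688 to 0.0407 against untreated cells. A group left with 1 library was assumed to vary like the others. In the siRNA pair PABPC1 was 0.0547 with upper-quartile factors. The causes were not tested. EEF1A1 and RACK1 rest on few tags, and with 2 libraries a group small differences could not be detected.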
